A study of Homo sapiens with 4 samples.

Results

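The data described here are the array ratios of 10 genes of the unfolded protein response (HSPA5, HSP90B1, DDIT3, ATF4, ATF6, XBP1, ERN1, EIF2AK3, DNAJB9 and HERPUD1) in cells transfected to lower GALNT3, an enzyme that starts mucin-type O-glycosylation in the Golgi. The question put to them was whether less of this transferase came with a transcriptional sign of stress in the endoplasmic reticulum (ER). The 10 genes were taken from the array by the transcript that each probe is annotated to, and they have 14 of the 41000 probes and are 10 of the 16882 genes measured. RNA was compared from A2780s, an epithelial ovarian cancer cell line: 2 stable clones with a short hairpin RNA against GALNT3 (sh-G1 and sh-G2) and 1 mock-transfected clone (ctrl). Each shRNA clone was hybridised against ctrl on 2 two-colour arrays, 4 arrays in all, with the clone in Cy5 in replicate 1 and in Cy3 in replicate 2. The cell line of ctrl has 2 spellings in the labels, and 1 ctrl clone was assumed for the 4 arrays. Both shRNA clones carry the same hairpin sequence and ctrl is a single clone, so an effect of the hairpin cannot be told apart from what made the ctrl clone differ from other clones.

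The ER folds secreted and membrane proteins with the help of chaperones, and unfolded proteins that accumulate there set off the unfolded protein response. Its sensors are 3 membrane proteins, IRE1 (encoded by ERN1), PERK (EIF2AK3) and ATF6. IRE1 removes a short intron from XBP1 messenger RNA, which then encodes an active transcription factor. PERK phosphorylates the translation factor eIF2alpha, which slows translation in general and favours that of ATF4, and ATF4 raises DDIT3 (CHOP), a factor tied to cell death under lasting stress. ATF6 moves to the Golgi and is cut there to free a transcription factor. Together these factors raise chaperones (HSPA5 or BiP, HSP90B1 or GRP94, DNAJB9 or ERdj4) and proteins that remove misfolded clients (HERPUD1). Splicing of XBP1, phosphorylation and cleavage of ATF6 are steps after transcription that a ratio of total messenger RNA does not measure.

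No probe of the 10 genes passed the test for a change in the shRNA clones, in either direction. Of all probes tested, 0.138% passed as higher and 0.7% as lower. With so low a background, a count of 0 among 14 probes says little about these genes. The highest mean ratios were those of XBP1 (log2 0.44 and 0.40 by its 2 probes) and ATF4 (0.34 and 0.24). The chaperones HSPA5 (-0.07 and 0.10) and HSP90B1 (0.11 and -0.24), DDIT3 (0.10), HERPUD1 (-0.02) and DNAJB9 (-0.11) are commonly read as signs of ER stress. Their mean ratios had both signs and lay within the middle 95% of all probes, from -0.44 to 0.30. DDIT3 was higher and DNAJB9 lower on all 4 arrays. Each value is a log2 ratio of shRNA clone over ctrl, averaged over the dye-swapped arrays of a clone and then over the 2 clones. Standard errors and 95% intervals are those of limma, which moderates the spread between the 2 clones with that of all probes.

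The regulatory sequence that ties several of these genes to ER stress is shown first. The ER stress element is bound by ATF6 together with NF-Y, and its letters are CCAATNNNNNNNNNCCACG. It was searched on both strands in the 250 bases before each gene start (RefSeq, GRCh38.p14), together with the related element ERSE-II, ATTGGNCCACG. The first was in 26 of 35116 windows (0.074%) and the second in 18 (0.0513%). Of the 10 genes, 3 held the first (HSPA5, HSP90B1 with 1 on each strand, and XBP1) and 1 held the second (HERPUD1). The windows of these 4 genes follow, 5′ to 3′ in the direction of the gene, with the elements in capitals. They lie at chr9:125241344-125241593 (minus strand), chr12:103930160-103930409 (plus strand), chr22:28800570-28800819 (minus strand) and chr16:56931892-56932141 (plus strand).
HSPA5: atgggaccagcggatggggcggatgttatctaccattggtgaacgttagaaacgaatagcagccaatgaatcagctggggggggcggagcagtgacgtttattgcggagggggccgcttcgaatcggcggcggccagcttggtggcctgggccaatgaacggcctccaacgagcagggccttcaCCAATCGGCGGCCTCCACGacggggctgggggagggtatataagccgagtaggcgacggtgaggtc
HSP90B1: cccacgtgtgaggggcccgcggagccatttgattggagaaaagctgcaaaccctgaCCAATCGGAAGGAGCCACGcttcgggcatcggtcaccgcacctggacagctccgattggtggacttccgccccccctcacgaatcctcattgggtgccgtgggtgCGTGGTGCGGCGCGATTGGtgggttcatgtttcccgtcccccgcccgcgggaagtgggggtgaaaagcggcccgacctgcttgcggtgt
XBP1: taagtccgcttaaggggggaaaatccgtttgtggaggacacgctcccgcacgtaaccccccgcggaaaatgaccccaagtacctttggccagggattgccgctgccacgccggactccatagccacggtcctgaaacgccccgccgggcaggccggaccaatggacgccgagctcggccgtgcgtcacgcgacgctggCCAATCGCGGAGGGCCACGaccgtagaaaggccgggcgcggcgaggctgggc
HERPUD1: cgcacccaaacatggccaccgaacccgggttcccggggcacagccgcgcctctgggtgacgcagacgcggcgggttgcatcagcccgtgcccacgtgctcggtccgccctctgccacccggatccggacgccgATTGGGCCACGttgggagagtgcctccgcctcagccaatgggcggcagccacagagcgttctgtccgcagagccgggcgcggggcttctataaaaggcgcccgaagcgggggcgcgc
In HSPA5 the element began 66 bases before the gene start, in XBP1 52 bases, in HERPUD1 117 bases and in HSP90B1 194 and 89 bases. The unfolded protein response element TGACGTGG, bound by spliced XBP1, was in 215 windows (0.612%) and in none of these genes. The composite site of C/EBP and ATF factors, TTGCATCA, was in 271 windows (0.772%) and in 1 of the 10 genes, HERPUD1. A match is a description of the letters in this window only.

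Before the members, the arrays themselves were checked. All 14 probes were well above background in both channels of all 4 arrays. The 4 arrays lay on 1 slide and were scanned once, so slide and scan did not differ between the clones. The 2 dye orientations of a clone agreed poorly over all 39152 probes kept (across probes, r = 0.324 in the sh-G1 pair and 0.186 in the sh-G2 pair), whereas arrays of the same orientation from different clones correlated with r = 0.613 and 0.732. The single GALNT3 probe gave ratios of -0.09 and 0.08 for sh-G1 and 0.12 and -0.14 for sh-G2 (mean -0.01, limma adjusted p = 0.963). Only 0.411% of the kept probes were dimmer, so the knockdown was not detectable by this probe, and the clones are called by their labels. All 10 markers of the cell line (keratins, EPCAM, PAX8, WT1, MUC16, cadherins, VIM) passed the filter. So did 39152 of the 40905 probes with a value on all arrays, that of GALNT3 among them, so passing says little about expression. The probe of CDH1, the epithelial cadherin, was dim, with 16.2% of the kept probes dimmer. Those of MUC16 (26.9% dimmer) and WT1 (29.4% dimmer) were also low. KRT18 (-2.32, adjusted p = 0.0365) and KRT8 (-1.03, adjusted p = 0.0316), the paired keratins of simple epithelia, were lower in the shRNA clones by limma. A second KRT8 probe had -0.44 (adjusted p = 0.151). CDH2, the neural cadherin, was at least 1.5-fold lower on all 4 arrays with a larger mean than KRT8 and was not called (-1.50, adjusted p = 0.180). KRT19 (0.04) and CDH1 (-0.01) were near 0.

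**Figure D1:**
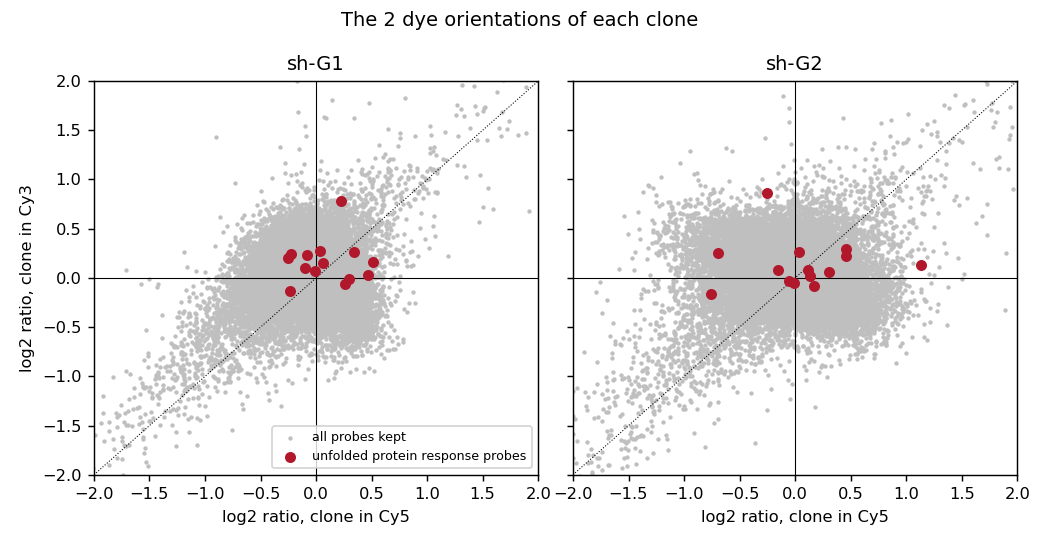
Log2 ratio of shRNA clone over ctrl on the array with the clone in Cy5 (x axis) against the array with the clone in Cy3 (y axis), for sh-G1 (left) and sh-G2 (right), with all kept probes in grey, the 14 probes of the unfolded protein response in red and equality dotted. The axes stop at 2 and leave out 124 and 157 probes. The red points lie in the central cloud and do not follow the dotted line.

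Between the orientations, 7 of the 14 probes had opposite signs for the sh-G1 clone, as did 4 of 14 for sh-G2, beside 59.4% and 65.1% of all probes. The members' own ratios correlated between the orientations with r = 0.0548 and -0.000619 over 14 probes. Averaging over the orientations cancels a dye effect that is equal on both arrays, and each mean below rests on that.

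Among the sensors, ERN1 (A_23_P164042) gave -0.01 and 0.07 for sh-G1 and -0.05 and -0.03 for sh-G2. The values lay within a narrow range on both sides of 0, and the mean was -0.01 (95% interval -0.14 to 0.13). This ERN1 probe was the dimmest of the 14 and dimmer than that of MUC16, called low above. Whether its dimness narrowed the range was not tested. EIF2AK3 (A_23_P135857) gave -0.22 and 0.24 for sh-G1 and 0.46 and 0.22 for sh-G2. The first array of sh-G1 alone was below 0, and the mean was 0.17 (interval -0.12 to 0.47). ATF6 (A_23_P62907) gave 0.26 and -0.06 for sh-G1 and 0.30 and 0.06 for sh-G2. Its higher values were both from arrays with the clone in Cy5, and the mean was 0.14 (interval -0.05 to 0.33). None of the sensors passed the test (limma adjusted p = 0.979, 0.588 and 0.505).

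XBP1, the factor activated by IRE1, has 2 probes. A_23_P120845 is annotated to the transcript of the unspliced message and gave 0.47 and 0.03 for sh-G1 and 1.14 and 0.13 for sh-G2. It was higher on all 4 arrays, far more so with the clone in Cy5. A_24_P100228 is annotated to the transcript of the spliced message and gave 0.22 and 0.78 for sh-G1 and -0.26 and 0.87 for sh-G2. Here the higher values came with the clone in Cy3, the opposite of the first probe. The first probe had clone means of 0.25 and 0.63 and an overall mean of 0.44 ± 0.12 (moderated standard error, 2 clones), or 1.36-fold, with a limma adjusted p of 0.300. The second had clone means of 0.50 and 0.30 and an overall mean of 0.40 ± 0.07, or 1.32-fold, with an adjusted p of 0.182. The array files give no probe sequence, so whether either probe can tell the spliced from the unspliced message is unknown, and no ratio between the probes is read as splicing. Without replicate 1 of sh-G2, the array on which it was negative, A_24_P100228 had a mean of 0.68. Without replicate 2 of sh-G2 its mean was 0.12. The other probe, A_23_P120845, moved the opposite way, to 0.19 and 0.69 without the same 2 arrays. Each of these fits left sh-G2 in a single dye orientation, where averaging does not cancel a dye effect. Whether single arrays or dye moved the XBP1 ratios was not tested.

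ATF4, the factor favoured when eIF2alpha is phosphorylated, was above ctrl on all 4 arrays by both of its probes. Probe A_23_P120933 gave 0.35 and 0.26 for sh-G1 and 0.46 and 0.29 for sh-G2. The clones overlapped, and the mean was 0.34, with a moderated standard error of 0.05 (1.27-fold, interval 1.14 to 1.41). Its limma adjusted p was 0.145, and the other ATF4 probe, A_23_P120941, gave 0.51, 0.16, 0.03 and 0.26 in the same order (mean 0.24, adjusted p = 0.363). When the 4 arrays were fitted separately, A_23_P120933 passed the test, with an adjusted p of 0.00686 with the clone as a random block and 0.0325 with a dye term. These fits count arrays rather than clones, and they called more of all 39152 probes kept. The random block called 848 higher and 1721 lower and the dye term 316 and 935, where the main test called 54 and 274. With ctrl given the same spread as the shRNA clones, the limma adjusted p was 0.813. No kept probe of any gene was called in that setting, where the smallest adjusted p was 0.119. DDIT3 (A_23_P21134), a target of ATF4, gave 0.06, 0.15, 0.12 and 0.08, all above 0 and within a narrow range (mean 0.10, interval -0.03 to 0.24, adjusted p = 0.487).

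Of the chaperones, HSPA5 is the main Hsp70 of the ER and keeps the sensors inactive when bound to them. Its probe A_24_P18190 gave -0.08 and 0.23 for sh-G1 and -0.69 and 0.25 for sh-G2, so the arrays with the clone in Cy5 were below 0 and those in Cy3 above it. Probe A_24_P98411 gave 0.04, 0.27, 0.17 and -0.09, with no such split. The means were -0.07 (interval -0.37 to 0.22) and 0.10 (interval -0.10 to 0.30), on opposite sides of 0. HSP90B1, the Hsp90 of the ER, also had probes of opposite sign. A_23_P2601 gave 0.30, -0.02, 0.14 and 0.02 (mean 0.11, adjusted p = 0.512), whereas A_24_P150361 gave -0.25, 0.21, -0.75 and -0.16 (mean -0.24, adjusted p = 0.558). DNAJB9, an Hsp40 partner of HSPA5, gave -0.24, -0.14, -0.01 and -0.05 and was the only member with a probe lower on all 4 arrays (mean -0.11, adjusted p = 0.652). HERPUD1, a membrane protein of ER-associated degradation, gave -0.10, 0.10, -0.15 and 0.08, again split by dye (mean -0.02, adjusted p = 0.943).

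**Figure D2:**
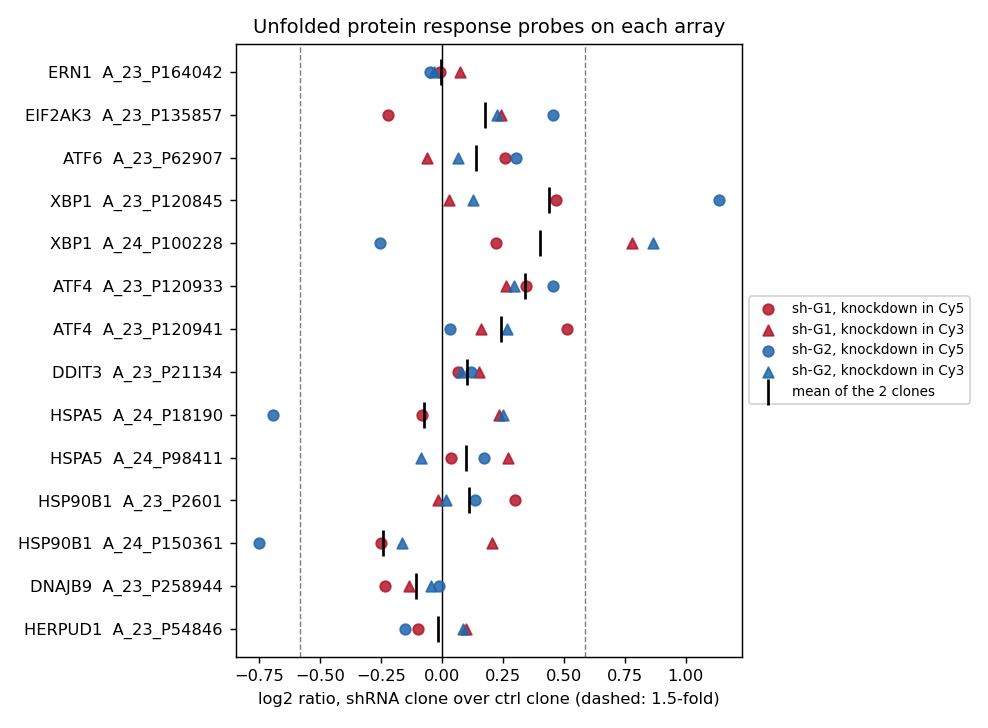
Log2 ratio of shRNA clone over ctrl (x axis) of each of the 14 probes on the 4 arrays, with sh-G1 in red, sh-G2 in blue, the clone in Cy5 as circles and in Cy3 as triangles. Black bars are the means of the 2 clones and dashed lines mark 1.5-fold. Both ATF4 probes and DDIT3 lie above 0 on every array, and no probe passes a dashed line on all 4.

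Counted over the 14 probes, 0 were called higher and 0 lower at a limma adjusted p under 0.05, where the background over all kept probes was 0.138% higher and 0.7% lower. None was at least 1.5-fold higher on all 4 arrays (background 0.23%) or lower (background 0.919%). By sign alone, 4 of 14 probes were higher on all 4 arrays (both ATF4 probes, DDIT3 and the XBP1 probe A_23_P120845), beside 6.21% of all probes, and 1 was lower (DNAJB9), beside 9.04%. At an unadjusted p under 0.05 there were 4 probes higher (both of ATF4 and both of XBP1), beside 5.28% of all probes, and 0 lower, beside 8.01%. The 4 probes come from 2 genes, and probes of a gene share the same RNA. The median of the 14 means was 0.11, beside -0.0037 for all probes. The 14 probes were also bright, with a median of 89.5% of kept probes dimmer. The part of brightness in these counts and in this median was not tested.

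The intervals say how large a change the arrays leave room for. For 12 of 14 probes the upper 95% limit was under 1.5-fold, the exceptions being the probes of XBP1 (1.73-fold and 1.53-fold). With ctrl given the spread of the shRNA clones, 9 of 14 limits were under 1.5-fold, among them those of HSPA5 (1.35-fold and 1.36-fold), DDIT3 (1.26-fold), DNAJB9 (1.20-fold) and HERPUD1 (1.22-fold). These limits hold for array ratios, each probe taken alone, and a p that misses the threshold does not show that a gene was unchanged. A count of 0 calls among 2 clones does not exclude a change. CDH2 was at least 1.5-fold lower on all 4 arrays and was not called.

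**Figure D3:**
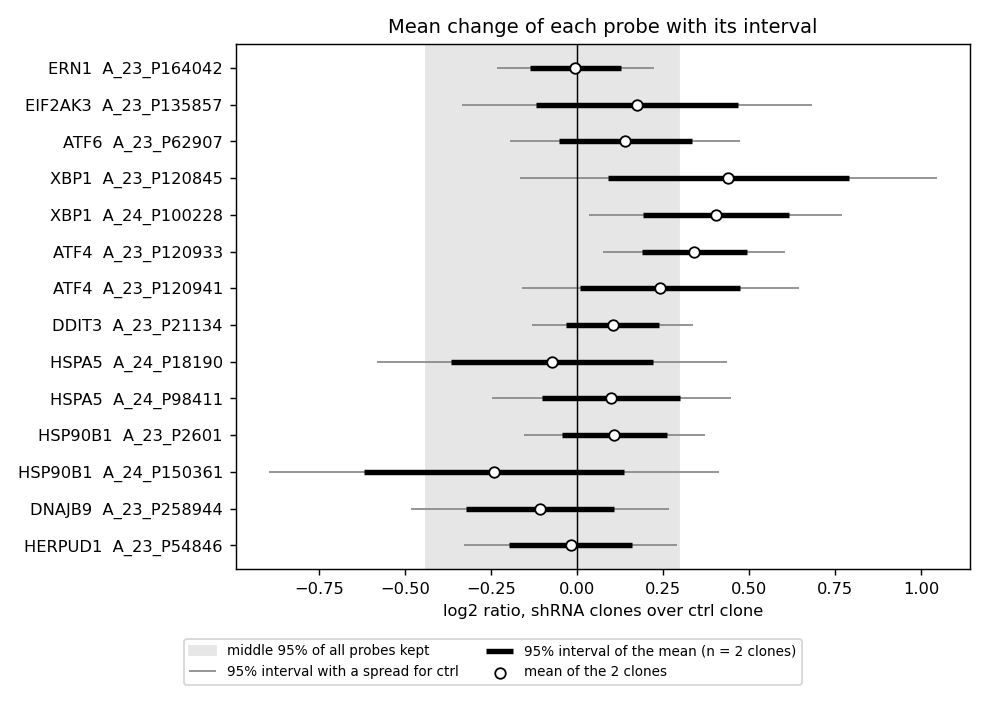
Mean log2 ratio of the 2 shRNA clones over ctrl (points, x axis) of each probe, with its 95% interval (thick lines, n = 2 clones) and the interval with ctrl given the same spread (thin lines). The grey band holds the middle 95% of all kept probes, from -0.44 to 0.30. The means of both XBP1 probes and of the ATF4 probe A_23_P120933 lie to the right of the band, and those of the other 11 probes lie inside it.

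The clones were also compared with each other, on the 4 arrays with a dye term. Each clone is 1 sample here, so this fit sets their difference against the technical spread of the dye-swapped arrays and not against that between cultures. Of the 14 probes 0 were called (limma adjusted p from 0.413 to 0.996), where 0.123% of all probes were. At an unadjusted p under 0.05 there was 1 probe, HSP90B1 A_24_P150361, whose mean was -0.02 for sh-G1 against -0.46 for sh-G2 (difference 0.44, interval 0.14 to 0.73). With 1 residual degree of freedom per probe, these values do not show that the clones were alike or that they differed.

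The wider pathway was read from 7 lists with 120 genes, of which 114 were measured, each by its brightest kept probe. None was called in either direction by limma, or was at least 1.5-fold on all 4 arrays. Of all 16882 genes, 31 were called higher and 153 lower, and 60 and 218 were at least 1.5-fold on all 4 arrays. With so low a background, a count of 0 among 114 genes says little about them. At an unadjusted p under 0.05 there were 10 genes higher and 5 lower, or 8.77% and 4.39%, beside 6.24% and 9.09% of all 16882 genes. Higher on all 4 arrays were 15 genes (13.2%, beside 7.08% of all genes) and lower on all 4 were 4 (3.51%, beside 10.3%).

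The targets of ATF4 and CHOP held the lowest mean ratio of the 7 lists, that of DDIT4. Of 27 genes measured, 15 had a mean above 0 (median 0.08). DDIT4, an inhibitor of mTORC1 that several stresses raise, gave -0.61, -0.74, -0.77 and -0.43, lower on all 4 arrays (mean -0.64, 0.642-fold, limma adjusted p = 0.0733). TRIB3, a pseudokinase raised by ATF4 and CHOP, gave 0.53, 1.22, -0.34 and 0.55 (mean 0.49, adjusted p = 0.474), and its second probe had a mean of 0.05. SLC7A1, a transporter of cationic amino acids, had means of 0.46 and 0.02 by its 2 probes, and WARS1, the tryptophanyl-tRNA synthetase, had -0.23. DDIT4 had a mean of -0.61 without replicate 2 of sh-G1 and of -0.55 without replicate 1 of sh-G2. SLC7A1 had 0.66 in the first of these fits and TRIB3 0.71 in the second. Both fits left a clone in a single dye orientation, so a dye effect was not cancelled there. ASNS, the asparagine synthetase, was picked out after its values were seen. It gave 0.38, 0.55, 0.53 and 0.22 (mean 0.42, adjusted p = 0.139).

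Of 22 ER chaperones and folding enzymes measured, 18 had a mean above 0 (median 0.06). ERO1A, the oxidase that recharges protein disulfide isomerase, gave 0.41, 0.43, 0.55 and 0.39 (mean 0.45, adjusted p = 0.126), and its second probe had a mean of 0.40. DNAJC10, an ER reductase, had a mean of 0.30 (adjusted p = 0.231). ERO1B, a related oxidase, had -0.22, and its second probe had -0.37 (limma adjusted p = 0.0911). UGGT2, a glucosyltransferase, had -0.13, and its other probes had -0.38 and 0.02. The median of this list was 0.15 without replicate 1 of sh-G2 and -0.02 without replicate 2 of sh-G2, so its sign turned. Each of these fits left sh-G2 in a single dye orientation. In ER-associated degradation 16 of 20 means were above 0 (median 0.04). By the brightest probe of each gene they ran from -0.17 for FAF2 to 0.14 for ERLEC1, with EDEM2 at 0.14 and DERL2 at -0.12. The second probes of FAF2 and EDEM2 had means of -0.30 and 0.02. The median of this list ran from -0.02 without replicate 2 of sh-G1 to 0.10 without replicate 1 of sh-G1.

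Of 20 genes of translocation, signal peptidase and ER export, 16 had a mean above 0 (median 0.07). SEC24D, a cargo adaptor of the COPII coat, gave 0.09, 0.68, 0.73 and 0.59 (mean 0.52, adjusted p = 0.175), and SPCS1, a signal peptidase subunit, had 0.22. SEC11C and SEC61B had -0.19 and -0.13. Among 7 eIF2alpha kinases and phosphatase subunits 2 means were above 0 (median -0.05). EIF2AK4 (GCN2), which senses uncharged tRNA, gave 0.12, 0.48, 0.86 and 0.57 (mean 0.51, adjusted p = 0.270), PPP1R15B had 0.10, EIF2AK2 (PKR), which senses double-stranded RNA, had -0.30, and EIF2S1, eIF2alpha itself, had -0.06. The other sensors and activating proteins were centred on 0 (10 genes, median 0.0032), with RTCB, the ligase that joins spliced XBP1, at 0.17, MBTPS1, the protease that cuts ATF6, at 0.16, CREB3L1 at -0.14 and CREB3L3 at -0.04. So were 8 genes of cell death under ER stress (median -0.0002), with TNFRSF10B and BAX at 0.15 each, BBC3 at -0.03 and BCL2L11, a BH3-only protein, at -0.34 (adjusted p = 0.602). That BCL2L11 probe averaged -0.70 for sh-G1 against 0.03 for sh-G2 (adjusted p = 0.179 between the clones), and its other 3 probes had means of -0.03, -0.09 and -0.03.

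Over the 7 lists, 77 of 114 genes (67.5%) had a mean above 0, beside 48.1% of all genes. This count was added after the values were seen. With median centring in place of loess it was 57.0%, beside 42.1% of all genes. With the series matrix it was 59.6%, beside 55.0%. Without replicate 2 of sh-G1 it was 55.3%, beside 49.0%, and without replicate 2 of sh-G2 53.5%, beside 48.6%. The listed genes were also bright, with a median of 87.4% of kept probes dimmer, against 64.7% for all genes, and the part of brightness in the count was not tested. In 13 genes of the cytosolic heat shock response, a separate protein folding response, 6 means were above 0 (median -0.02). BAG3 had 0.19 (0.03 by its second probe), DNAJA1 0.14, HSP90AA1 -0.33 and HSF1 -0.13. The other probes of HSP90AA1 had 0.08, -0.03 and -0.31. Of these 13 genes 0 were called, against the low background given above for all genes.

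**Figure D4:**
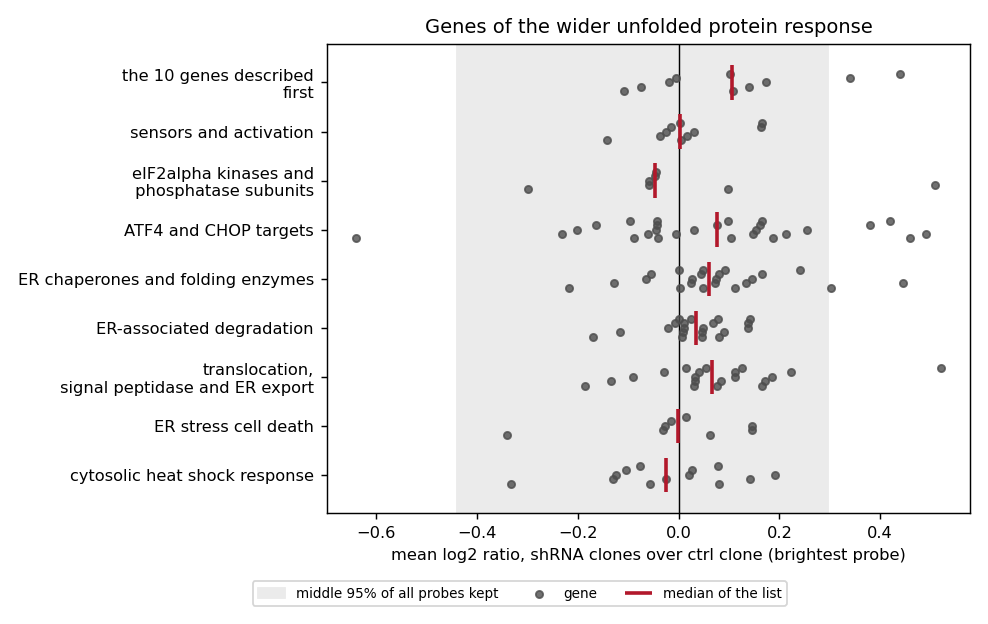
Mean log2 ratio of the shRNA clones over ctrl (x axis) of each measured gene by its brightest kept probe, by list, with list medians in red and the middle 95% of all kept probes as a grey band. The medians run from -0.05 to 0.11, and most genes of every list lie inside the band.

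The elements printed above allow a last look across the genome. An ER stress element or ERSE-II lay before 43 genes, of which 33 were measured. Their median ratio was 0.0016 (range -0.25 to 0.44), and 17 of 33 were above 0 (51.5%, beside 48.1% of all genes). None was called by limma, beside 184 of all 16882 genes, so this count says little. Higher on all 4 arrays were 3 and lower on all 4 were 5, beside 7.08% and 10.3% of all genes. XBP1 had the highest value of the 33. Without the 4 genes described first, the median of the other 29 was also 0.0016. The ER folding proteins among these 29 were SDF2L1 (0.16, higher on all 4 arrays), PDIA6 (0.15), CALR (0.07), CRELD2 (0.02), HYOU1 (0.0016), CANX (-0.07) and ERO1B (-0.22). ERO1B was lower on all 4 arrays by both of its probes. CANX was lower on all 4 by the probe used, and its second probe had a mean of 0.08.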

How the data were processed

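Total RNA of sh-G1, sh-G2 and ctrl was compared on 4 two-colour arrays. The authors extracted median spot intensities and local background intensities with Agilent Feature Extraction (8.5.1.1 per the labels, 10.5.1.1 per the file headers) and deposited them with a log10 ratio of Cy5 over Cy3. The deposited series matrix holds that log10 ratio for 3 arrays. For sh-G1 replicate 2 it holds the ratio's error, which was left out. Probes were named through RefSeq (25398 of 41000). Background was corrected with normexp (offset 50), arrays were normalised by loess, outlier spots were left out, and probes needed a signal well above background in 1 or both channels of each array. Ratios were turned to shRNA clone over ctrl, averaged over dye-swapped arrays and tested against 0 with limma 3.58.1 in R 4.3.3 (n = 2 clones, Benjamini-Hochberg over 39152 probes). The ctrl clone's own spread is left out of this test. Whether the dye swaps hold separate RNA extracts is not given in the sources used here, so they counted as 1 replicate, and p-values measure the spread between 2 clones. Both tests were checked on simulated data, and recovery depended on how the spread of each probe was drawn. Drawn from the distribution limma fitted to these arrays, changes of the size seen among the 10 genes were not recovered and large ones were. With a more even spread small changes were recovered as well, and where that spread was the moderated variances, false calls exceeded the threshold. Precision is limited by how few arrays there are.

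The genes and lists were chosen with earlier results of these data known. In the wider lists, genes were named if called, if at least 1.5-fold on all 4 arrays, or as the 2 largest means in each direction. Alternatives covered background correction, normalisation, filters, single arrays, a spread for ctrl, a random block and a dye term. Leaving out a single array left its clone in a single dye orientation, so a dye effect was no longer cancelled in that clone. The series matrix, which lacks the ratio of sh-G1 replicate 2, did the same.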

Additional observations from a re-analysis of the deposited data

How the results depend on the processing

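Over 17 settings and 210 values of member probes, 12 turned sign, and 2 probes passed the threshold under some alternative. The cause was not tested. The settings in which a member probe passed also called more of all probes, as given below. The number of member probes called was 0 except for 1 without sh-G2 replicate 1 (XBP1 A_24_P100228, 0.683), 1 with clone as a random block and 1 with a dye term (both ATF4 A_23_P120933, 0.340), so its range when single arrays were left out was 0 to 1. Probes with 1 sign on every array numbered 5, then 3 with median centring and 6 to 9 without single arrays, where fewer arrays have to share a sign. Genes called in the wider lists numbered 0, then 1 with the series matrix (DDIT4), and 0 to 2 without single arrays (DDIT4 with SLC7A1 without sh-G1 replicate 2, DDIT4 with TRIB3 without sh-G2 replicate 1).

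Values that turned sign were ERN1 (0.00688 without background correction, 0.0331 with the software's ratios, 0.0243 with the series matrix, -0.0263 to 0.0153 without single arrays), HERPUD1 (0.0260 with the software's ratios, 0.0207 with the series matrix, -0.0781 to 0.0409 without single arrays), EIF2AK3 (-0.0574) and DNAJB9 (0.0197) with the series matrix, and HSPA5 A_24_P18190 (-0.310 to 0.163 without single arrays). GALNT3 gave 0.0254 without background correction, 0.160 with median centring, 0.115 with the software's ratios, and -0.0756 to 0.0592 without single arrays. Calls over all probes, 54 higher and 274 lower, were 118 and 408 with the software's ratios, 213 and 792 with the series matrix, 848 and 1721 with a random block, 316 and 935 with a dye term, and 0 and 0 with a spread for ctrl. The calls without single arrays were 170 and 460, 188 and 867, 339 and 749, and 56 and 322 without sh-G1 replicate 1, sh-G1 replicate 2, sh-G2 replicate 1 and sh-G2 replicate 2.

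The replicate numbers mark the dye orientation, so the fit with a dye term is also the fit with the replicate number as a block. Of the 14 probes it called ATF4 A_23_P120933 alone (limma adjusted p = 0.0325). The test between the clones could not be repeated without single arrays, which leaves no residual degrees of freedom. Over all settings the list medians ran from -0.03 to 0.08 (sensors), -0.13 to 0.03 (kinases), 0.03 to 0.11 (ATF4 and CHOP targets), -0.02 to 0.15 (chaperones), -0.02 to 0.10 (degradation), 0.05 to 0.13 (translocation), -0.04 to 0.04 (cell death) and -0.07 to 0.02 (heat shock).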
